A study of Mus musculus with 4 samples.

Results

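The alpha- and beta-globin gene clusters of the mouse were followed across a methylation tiling array, probe by probe, in fetal liver after maternal food restriction. The members were the non-control probes that start on build mm9 within chr7:110940000-111030000, the beta-globin window, or chr11:32150000-32200000, the alpha-globin window. These windows held 145 of the 415749 probes used, 84 in the beta window and 61 in the alpha window, and none carried an outlier flag. The food restricted group was 1 pool of liver DNA from C57BL/6J fetuses whose mothers received 50% of the control chow intake from gestation day 10 to 17. The control group was 1 pool from fetuses of the same strain whose mothers ate freely. Both pools were collected on gestation day 18, and each is labelled N = 6 without saying whether this counts fetuses or litters. Methylated DNA was immunoprecipitated from each pool and hybridised against the total DNA of that pool, on 2 arrays with the dyes exchanged.

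Red blood cells carry hemoglobin, which is built of alpha-type and beta-type globin chains encoded in separate clusters. In each cluster embryonic genes are used first, and the fetal liver, the main site of red cell formation before birth, uses the adult genes. Hba-x encodes the embryonic zeta chain, and Hba-a1 and Hba-a2 encode the adult alpha chains. Hbb-y and Hbb-bh1 encode embryonic beta-like chains, and Hbb-b1 and Hbb-b2 are the names of the adult beta genes of one mouse haplotype, whose counterparts in C57BL/6 are Hbb-bs and Hbb-bt. A distal control region acts on the beta genes, and enhancers within introns of the neighbouring gene Nprl3 act on the alpha genes. Globin genes are a classic case in which low methylation of cytosines in CG pairs goes with use of the gene. Liver at this stage holds red cell precursors beside hepatocytes and blood cells of other kinds, so the values are an average over the cells of a pool, and the arrays measure DNA and give no marker of the cell makeup.

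The genes could be ordered but not placed under the probes, because the files name probes by mm9 position and the RefSeq table at hand is on build GRCm38.p6. In that table the genes on chromosome 7 run from the olfactory receptor gene Olfr67 through Hbb-bt, Hbb-bs, the pseudogenes Gm15115 and Hbb-bh3, Hbb-bh2, Hbb-bh1 and Hbb-y to a second olfactory receptor gene, Olfr66. On chromosome 11 they run Nprl3, Hba-x, Hba-a1, Hbq1b, Hba-a2 and Hbq1a. Of the 7 globin names that define the windows, 5 stood in these runs, and 4 had a promoter sequence.

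The stretches of 250 bases before the start of the genes are shown because the antibody used in such an assay binds methylated CG pairs. They show how many CG pairs each of these promoters offers. They come from RefSeq on build GRCm38.p6 and are written on the strand of the gene, with each CG in capitals. Hba-x lies at chr11:32276350-32276599 on the plus strand, and Hba-a1 at chr11:32283422-32283671 on the plus strand. The other 3 lie on the minus strand of chromosome 7, Hbb-y at chr7:103853208-103853457, Hbb-bs at chr7:103827929-103828178 and Hbb-bt at chr7:103813924-103814173.
Hba-x: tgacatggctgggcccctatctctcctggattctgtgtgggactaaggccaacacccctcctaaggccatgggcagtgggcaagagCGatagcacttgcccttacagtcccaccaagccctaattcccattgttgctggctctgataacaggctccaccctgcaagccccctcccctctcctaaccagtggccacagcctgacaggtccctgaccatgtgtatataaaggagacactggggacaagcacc
Hba-a1: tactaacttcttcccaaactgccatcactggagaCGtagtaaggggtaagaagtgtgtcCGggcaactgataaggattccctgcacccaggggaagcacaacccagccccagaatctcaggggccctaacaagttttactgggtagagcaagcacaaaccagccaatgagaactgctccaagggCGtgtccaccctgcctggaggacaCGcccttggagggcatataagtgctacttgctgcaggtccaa
Hbb-y: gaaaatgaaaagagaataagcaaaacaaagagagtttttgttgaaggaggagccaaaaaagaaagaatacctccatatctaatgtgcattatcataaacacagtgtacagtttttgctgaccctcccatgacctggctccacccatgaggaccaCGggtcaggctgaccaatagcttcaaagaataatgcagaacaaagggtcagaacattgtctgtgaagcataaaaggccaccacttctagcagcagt
Hbb-bs: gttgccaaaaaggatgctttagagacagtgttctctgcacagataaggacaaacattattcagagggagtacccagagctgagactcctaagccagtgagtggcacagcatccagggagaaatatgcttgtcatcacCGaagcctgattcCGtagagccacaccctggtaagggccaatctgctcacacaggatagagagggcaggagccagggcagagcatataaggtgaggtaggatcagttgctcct
Hbb-bt: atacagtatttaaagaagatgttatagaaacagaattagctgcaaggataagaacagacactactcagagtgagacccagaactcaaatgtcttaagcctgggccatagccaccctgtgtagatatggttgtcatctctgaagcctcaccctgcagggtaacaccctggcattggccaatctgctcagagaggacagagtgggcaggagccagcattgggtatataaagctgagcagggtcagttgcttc

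The embryonic promoters of Hba-x and Hbb-y held 1 CG each, the adult Hba-a1 promoter held 4, Hbb-bs held 2 and Hbb-bt held 0. The median of 32851 mouse promoters of this length was 6 CG. A count of 4 or fewer was found in 44.4% of them, 2 or fewer in 29.0%, 1 or fewer in 18.8%, and 0 in 7.87%. The Hba-a2 promoter at chr11:32296242-32296491 is not printed because it matched that of Hba-a1 at 247 of 247 compared bases. The pair Hbb-bs and Hbb-bt matched at 127 of 249 bases, or 51.0%. Matches of letters to 3 short motifs, searched on both strands, are given. The CCAAT box occurred 0 times in Hba-x, 1 time in Hba-a1, Hbb-y and Hbb-bs, and 3 times in Hbb-bt, and 33.8% of all promoters hold it. CACCC, the core of the sites of the red cell factor Klf1, occurred 2 times in Hba-x and Hba-a1, 1 time in Hbb-y and Hbb-bs, and 3 times in Hbb-bt, against 52.0% of all promoters with a match. GATAA, a core of the sites of Gata1, occurred 1 time in each of the promoters shown, and 22.6% of all promoters hold it. These are matches of letters within the window, and the array values that follow could not be set against single promoters.

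The measure of enrichment is M, which is log2 of immunoprecipitated over total DNA signal, with the median probe of each array set to 0. M rises with methylation and with the number of CG pairs in a fragment, so a low value does not tell few CG pairs from unmethylated ones. The difference between the pools, D, was taken within a slide as food restricted minus control M. Slide 1 had immunoprecipitated DNA in Cy5 and slide 2 in Cy3, and each carried both pools. The 2 arrays of a pool are repeats of 1 sample, so each value is given on both slides, no p-value was computed, and the difference between the pools has no replicate check. Immunoprecipitated signal stood well above background at 79.9% and 80.6% of all probes in the food restricted pool, against 72.2% and 72.0% in the control pool. In the deposited value table the columns of the food restricted pool on slide 1 and of the control pool on slide 2 hold each other's scanner values, so that pool identity rests on the labels of the scanner files. Array position and pool also cannot be told apart.

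The beta-globin window was poor in immunoprecipitated DNA at 77 of its 84 probes, which had mean M below 0, and the alpha-globin window alternated between rich and poor stretches. Median M over the 84 beta probes was -1.25 and -1.16 on the food restricted arrays of slides 1 and 2, against -1.55 and -1.46 on the control arrays. Over the 61 alpha probes it was -0.35 and -0.25 in the food restricted pool, against -0.26 and -0.55 in the control pool. Alpha therefore stood above beta by 0.89 and 0.91 on the food restricted arrays and by 1.29 and 0.90 on the control arrays. This order depended on the processing. Averaged over the arrays, the alpha and beta levels were -0.46 and -0.54 with loess normalization. With normexp background correction they were -0.39 and -0.17, so that alpha lay below beta. That correction adds an offset of 50 to both channels, which draws the ratio of small signals toward 1. Median background-subtracted immunoprecipitated signal was 13.9 and 11.2 over beta probes in the food restricted pool, against 7.19 and 5.66 in the control pool. Over alpha probes it was 70.7 and 59.3, against 40.2 and 30.8. The part of the offset in this order was not tested. The share of probes with mean M below 0 over the 4 arrays was 91.7% in the beta window and 59.0% in the alpha window, at 36 of 61 probes, against 50.8% of all probes. Mean M was below -1 at 72.6% of beta probes and 31.1% of alpha probes, against 28.3% of all probes. It was above 1 at 2 beta probes and 15 alpha probes.

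**Figure D1:**
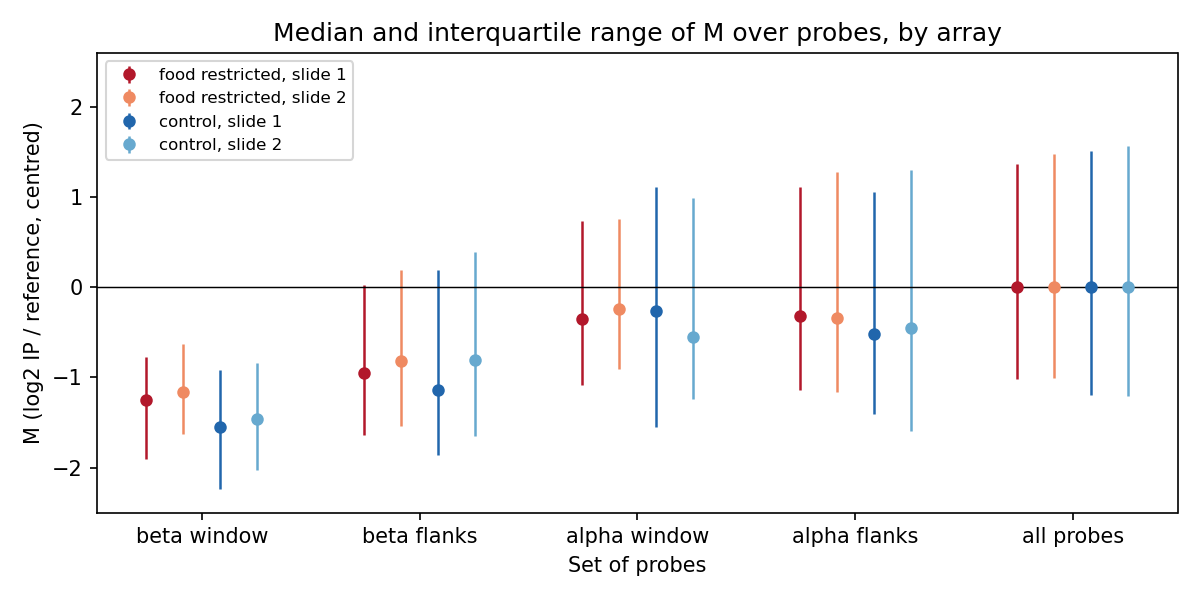
Median M (log2 of immunoprecipitated over total DNA, centred, points) with the interquartile range over probes (lines) on the 4 arrays, for the beta and alpha windows, their flanks and all probes. The beta window has the lowest medians of the sets drawn, from -1.25 to -1.16 on the food restricted arrays and from -1.55 to -1.46 on the control arrays, and the alpha window lies near its flanks.

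Each window was set against flanks of its own length on either side, 309 probes around beta and 95 around alpha. The beta window lay below its flanks on every array, by differences of -0.30 and -0.34 in the food restricted pool and -0.41 and -0.66 in the control pool. The beta flanks were themselves low, with median M of -0.95 and -0.82 in the food restricted pool and -1.14 and -0.80 in the control pool. The difference of the alpha window from its flanks changed sign between arrays, with -0.03 and 0.10 in the food restricted pool and 0.25 and -0.10 in the control pool. At the level of a whole window, alpha could not be told from its surroundings.

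Most beta probes gave too little immunoprecipitated DNA to be measured well. Good immunoprecipitated signal, well above background, was found at 31 and 33 of 84 beta probes in the food restricted pool (36.9% and 39.3%), against 16 and 15 probes in the control pool (19.0% and 17.9%). At 43 beta probes it was dim, meaning not well above background, on all 4 arrays. At 4 of these the total DNA was dim on all arrays too, so that their ratio has no bound, and at the other 39 M rests on an immunoprecipitated signal that was not measured above background. The total DNA channel of the beta window was well above background at 88.1% to 95.2% of probes. At the 12 beta probes with good immunoprecipitated signal on every array, mean M ranged from -1.68 to 1.38 with a median of -1.11, and 11 of the 12 were below 0. In the alpha window 50 and 54 of 61 probes were well above background in the food restricted pool (82.0% and 88.5%), against 46 and 45 in the control pool (75.4% and 73.8%).

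The sampled beta window ran from 110940024 to 111029836 on chromosome 7 in 8 blocks of probes. Gaps of 19.3, 24.2, 5.73 and 24.7 kb carried no probe. Between chr7:110963550-110994534 all 30 successive probes had mean M below 0, on both sides of the gap of 24.2 kb. After 1 probe above 0, which was dim in both channels on all 4 arrays, followed the longest run. It held 32 probes below 0 at chr7:110994668-111029836. Its span of 35.2 kb includes the gaps of 5.73 and 24.7 kb, so most of it was not measured. Median M of this run was -1.36 and -1.33 in the food restricted pool, against -2.10 and -1.49 in the control pool, so the food restricted values were less negative on both slides. The longest run above 0 had 2 probes, at chr7:110941909-110942135, and both were dim in both channels. Of the 7 beta probes with mean M above 0, 4 were dim in both channels on every array, and 1 had good immunoprecipitated signal on all 4. That probe, at chr7:110943018-110943077, had M of 0.90 and 1.68 in the food restricted pool, against 1.10 and 1.83 in the control pool. It stands near the lower edge of the window.

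**Figure D2:**
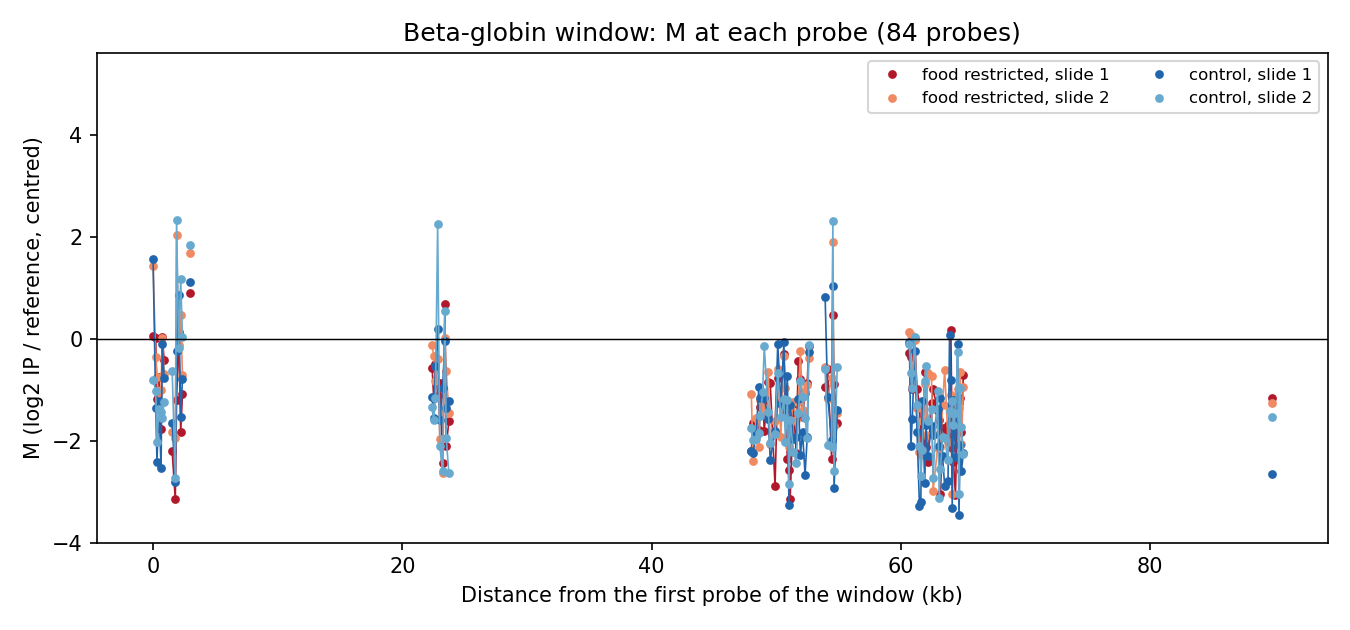
M at each of the 84 beta probes (y axis, log2) against distance from the first probe of the window in kb (x axis), with 1 colour per array and lines joining probes of a block. Values lie mostly between 0 and -3 on all 4 arrays, and 77 of the 84 probes have a mean below 0.

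For comparison between pools, neighbouring probes were joined into regions by starts at most 500 bp apart, with at least 3 probes and at most 2000 bp, and a region was given the median of its probes. The beta window held 9 regions with 75 probes, numbered beta 1 to beta 9 by position, and the alpha window held 9 regions with 50 probes, alpha 1 to alpha 9. All 9 beta regions had mean M below 0. Their place among all 56653 regions ranged from percentile 1.75 to 31.5. In the control pool all 9 were dim, which means that more than 50% of their probes were dim on both arrays, and in the food restricted pool 5 were.

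The beta regions of highest M were beta 1, beta 6 and beta 2. Beta 1, chr7:110941556-110942438 with 6 probes, had M of -1.52 and -0.42 in the food restricted pool, against -1.17 and -0.08 in the control pool. Its slides differed more than its pools, and it was dim in both pools. Beta 6, chr7:110993952-110994982 with 6 probes, had -0.92 and -0.98 in the food restricted pool, against -1.27 and -1.34 in the control pool. Beta 2, chr7:110962418-110963817 with 9 probes, had -1.12 and -0.64 in the food restricted pool, against -1.15 and -1.59 in the control pool, so that its pools differed on slide 2 and were close on slide 1.

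The lowest were beta 8, beta 9 and beta 3. Beta 8, chr7:111002187-111003604 with 8 probes, had M of -1.67 and -1.59 in the food restricted pool, against -2.00 and -1.94 in the control pool. It was the lowest region of either window, and both food restricted values were above both control values. All 8 of its probes were dim on both control arrays and 6 on both food restricted arrays, so this order is not a measured difference. Beta 9, chr7:111003814-111005101 with 11 probes, had -1.69 and -1.31 in the food restricted pool, against -2.24 and -1.45 in the control pool. Beta 3, chr7:110988032-110989605 with 9 probes, had -1.65 and -1.40 in the food restricted pool, against -1.58 and -1.75 in the control pool, and its groups overlapped.

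The alpha window carried its probes between 32166530 and 32199815 on chromosome 11 in 15 blocks, and M rose and fell within distances of 1 to 2 kb. The sign of M was the same on all 4 arrays at 21 of the 25 probes with mean M above 0 and at 28 of the 36 below 0. Across the 61 probes the arrays of a pool correlated at r = 0.94 in the food restricted pool and 0.89 in the control pool, while across the 84 beta probes r was 0.59 and 0.63. These correlations run over neighbouring probes of 2 pools and are descriptions. The median size of the difference between the repeats of a pool was 0.31 in the food restricted pool and 0.35 in the control pool for alpha, and 0.44 and 0.60 for beta.

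**Figure D3:**
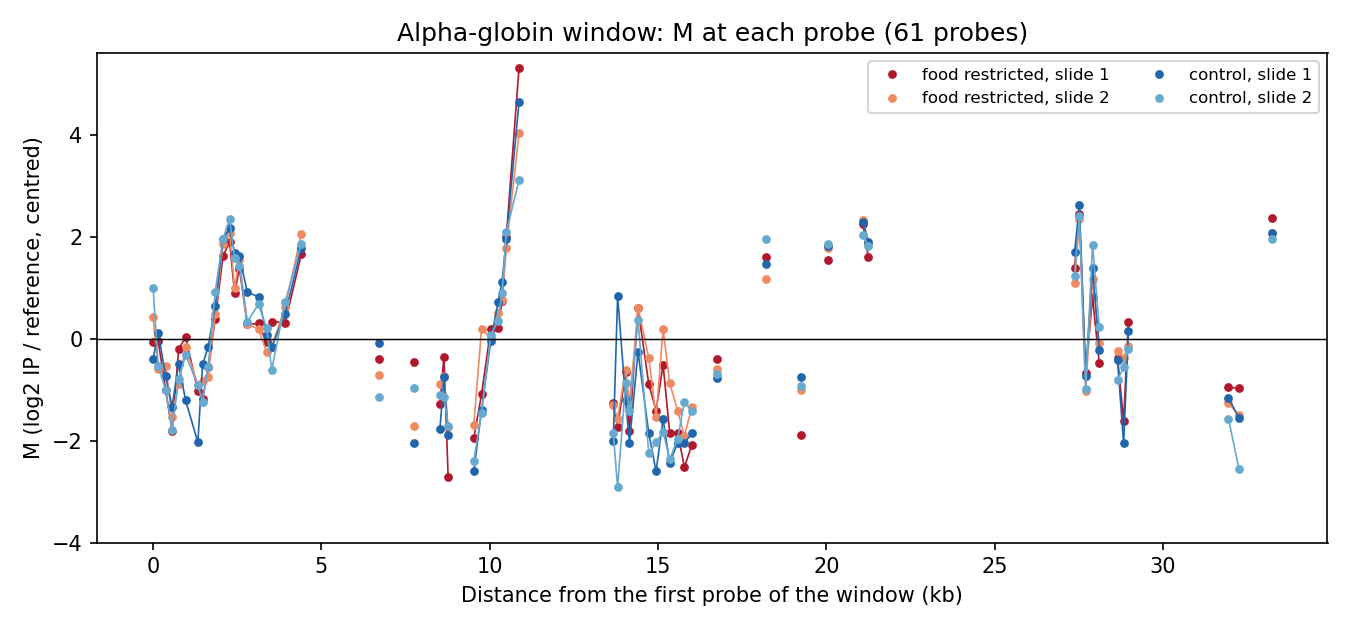
M at each of the 61 alpha probes (y axis, log2) against distance from the first probe of the window in kb (x axis), with 1 colour per array and lines joining probes of a block. Of 61 probes, 21 lie above 0 and 28 below 0 on all 4 arrays, and the highest probe reaches 5.31 on the slide 1 array of the food restricted pool and 4.64 on that of the control pool.

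The longest run of probes above 0 had 7 probes at chr11:32168376-32169721, a span of 1.35 kb. Its median M was 0.90 and 0.99 in the food restricted pool, against 1.61 and 1.43 in the control pool. Directly before it, 8 probes at chr11:32166682-32168210 were below 0, with medians of -0.78 and -0.79 in the food restricted pool, against -0.62 and -0.86 in the control pool. A run of equal length, 8 probes at chr11:32181255-32183339, was lower, with -1.63 and -1.10 in the food restricted pool, against -1.95 and -1.89 in the control pool. Beyond it the probes at 32184744, 32186593, 32187620 and 32187777 were high, with mean M of 1.54, 1.75, 2.23 and 1.79. The probe at 32185767 between them had -1.14. These probes lay too far apart, or too few together, to form a region.

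The regions of highest M in the alpha window were alpha 2, alpha 8 and alpha 5. Alpha 2, chr11:32168166-32169388 with 7 probes, had M of 0.90 and 0.99 in the food restricted pool, against 1.61 and 1.43 in the control pool, and none of its probes was dim on both arrays of a pool. Both food restricted values were below both control values, and the share of all regions that separate in this way is not given here. Alpha 8, chr11:32193904-32194690 with 5 probes, had 0.81 and 1.10 in the food restricted pool, against 1.38 and 1.23 in the control pool. Alpha 5, chr11:32176057-32177459 with 7 probes, had 0.21 and 0.51 in the food restricted pool, against 0.72 and 0.34 in the control pool, and its groups overlapped. Alpha 2 stood at percentile 75.1 of all regions, and probes outside regions, such as that at 32187620, had higher M.

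Within these regions M changed steeply from probe to probe. Inside alpha 5 mean M ran from -2.16 at its first probe to 4.27 at its last, chr11:32177400-32177459. The last probe had M of 5.31 and 4.03 in the food restricted pool, against 4.64 and 3.10 in the control pool, and its total DNA signal was dim on both arrays of slide 1, which leaves the size of those ratios uncertain. Inside alpha 8 the probe at chr11:32194233-32194277 fell between neighbours with mean M of 2.45 and 1.30, with M of -0.68 and -1.03 in the food restricted pool, against -0.73 and -0.99 in the control pool. Its total DNA signal was 61.6 to 84.2 times the array median, and 0.129% of all probes were at least 10 times as bright as that median. Whether this brightness sets the low ratio was not tested.

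The lowest alpha regions were alpha 7, alpha 6 and alpha 4. Alpha 7, chr11:32181472-32182588 with 6 probes, had M of -1.84 and -1.38 in the food restricted pool, against -2.04 and -1.89 in the control pool, and stood at percentile 1.86. Alpha 6, chr11:32180200-32181305 with 6 probes, had -1.08 and -0.94 in the food restricted pool, against -1.53 and -1.64 in the control pool. Alpha 4, chr11:32175051-32175351 with 3 probes, had -1.28 and -0.89 in the food restricted pool, against -1.77 and -1.15 in the control pool. Alpha 7 and alpha 4 were dim in the control pool. Alpha 7 was close to the lowest beta region, with a mean M of -1.79 against -1.80 for beta 8, and alpha 6 and alpha 4 lay higher, at -1.30 and -1.27.

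The comparison of the pools asked whether food restriction of the mother went with other methylation at these clusters. The size needed for a call, of a region or a probe, was a D of 0.5 or more, a 1.41-fold change of the ratio, in 1 direction on both slides. None of the 18 regions was called. Over the whole array 4.55% of regions were called higher in the food restricted pool and 0.643% lower, so that a count of 0 among 18 stands near the background. Median D over the beta probes was 0.12 on slide 1 and 0.29 on slide 2, against 0.04 and 0.10 over all probes. Averaged over the slides it was 0.21, but 0.049 with the running median of D along M taken off and -0.0021 with normexp background correction. Median D over the alpha probes was 0.03 and 0.10, the same as over all probes to within 0.01. The flanks had 0.10 and 0.04 around beta and 0.17 and 0.18 around alpha.

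Among single probes, 17 of 84 in the beta window were called higher in the food restricted pool (20.2%), against 9.85% of all probes. Another 4 were called lower (4.76%), against 2.48% of all probes, and 6 passed the size with opposite signs on the slides (7.14%), against 3.84%. All 3 shares of the beta window were thus above those of the array, the opposite signs included. Among the 12 beta probes with good immunoprecipitated signal on all arrays, 3 were called higher and 0 lower, against 7.87% and 0.566% of such probes on the array. In the alpha window 7 of 61 probes were called higher (11.5%), 2 lower (3.28%) and 2 had opposite signs (3.28%). Of the 43 well measured alpha probes 2 were called higher and 2 lower.

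The alpha regions differed between the pools in a direction that went with their level. Each of the 5 alpha regions with mean M below 0 had D above 0 on both slides, and 3 of the 4 regions with mean M above 0 had D below 0 on both. Over all regions, whatever their level, 39.1% had D above 0 on both slides and 23.7% had D below 0 on both. The standard deviation of M over the alpha probes was 1.48 and 1.31 in the food restricted pool, against 1.61 and 1.52 in the control pool, so the profile of the food restricted pool was flatter on both slides. Over all probes it was 1.72 and 1.72 in the food restricted pool, against 1.75 and 1.73 in the control pool. Each alpha region was also set beside the 2001 regions nearest to it in M. Their median D was above 0 on both slides beside every alpha region with mean M below 0. It was below 0 on both beside every alpha region with mean M above 0. A direction that goes with level was therefore found over the array and is not particular to the alpha window. Beside alpha 2 these had a median D of -0.14 and -0.07, against its own D of -0.71 and -0.44. Beside alpha 6 the median was 0.24 and 0.27, against its own D of 0.45 and 0.70. Beside alpha 7 it was 0.31 and 0.35, against its own 0.20 and 0.52, and beside alpha 1 it was 0.12 and 0.12, against 0.01 and 0.14. Beside alpha 5 it was -0.10 and -0.05, against -0.51 and 0.17, so not every region exceeded or followed those of its level.

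Alpha 2 and alpha 6 came closest to a call among the alpha regions. At alpha 2 the difference in the centred immunoprecipitated signal was -0.63 on slide 1 and -0.59 on slide 2, and that in the total DNA signal was 0.20 and 0.08. The median region of the array differed by -0.14 and -0.13 in the immunoprecipitated channel. At alpha 6 the immunoprecipitated signal differed by 1.06 and 1.01 and the total DNA signal by 0.50 and 0.57. Of its 6 probes 2 were dim on both control arrays. With dim control probes raised to the lowest well measured immunoprecipitated signal of their array, its fold was 1.06, against 1.49 without this. The size of its D therefore rests in part on control signal that was not measured. In the immunoprecipitated channel alone both passed the size on both slides, alpha 2 as lower and alpha 6 as higher in the food restricted pool. With normexp background correction mean D of alpha 2 was 0.16 and that of alpha 6 was 0.080, so the direction of alpha 2 turned. Median background-subtracted immunoprecipitated signal over all probes was 63.2 and 43.8 in the food restricted pool, against 39.1 and 29.5 in the control pool. The normexp offset of 50 is of that size, so it can also shrink ratios at probes that are not dim. None of the probes of alpha 2 was dim on both arrays of a pool. Why its direction turned was not tested. With loess normalization mean D of alpha 2 and alpha 6 was -0.22 and 0.12. With the pools set by the column labels of the value table, which then compares slides, they were -0.047 and 0.013.

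**Figure D4:**
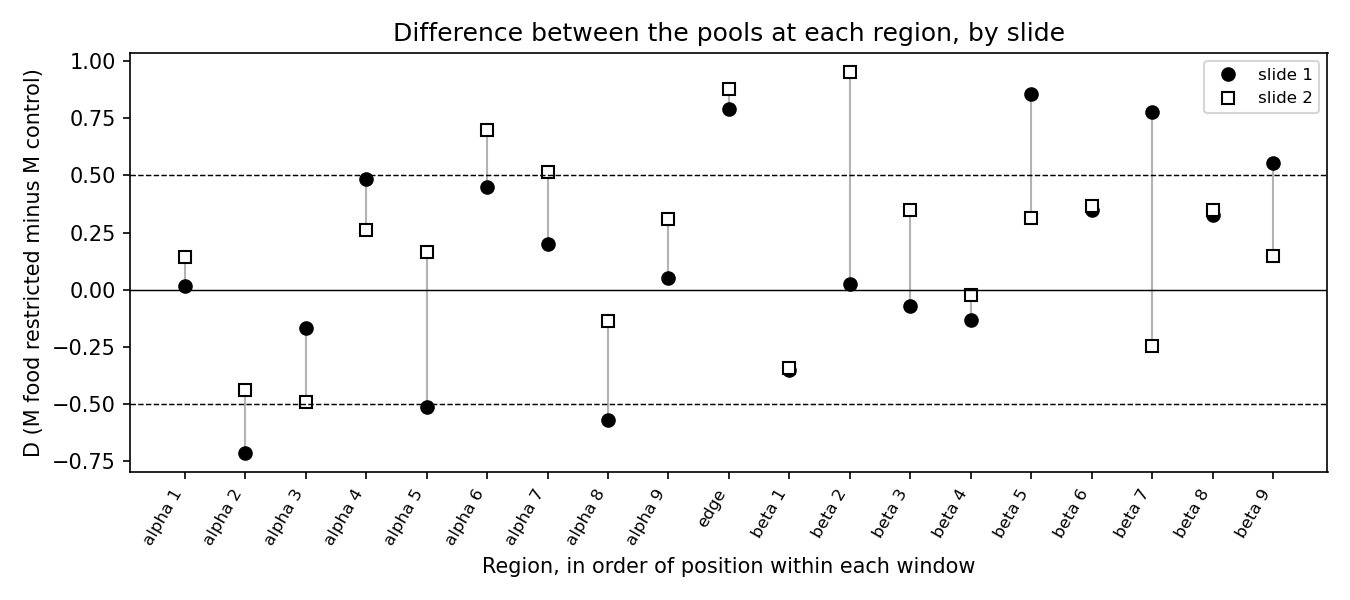
D (food restricted minus control, difference of M on the log2 scale) of each region on slide 1 (filled) and slide 2 (open), with dashed lines at 0.5 in size. Alpha 2 and alpha 6 lie beyond the line on 1 slide and just inside it on the other, the region across the edge of the beta window is the only one beyond it on both, and beta 2, beta 5 and beta 7 differ widely between the slides.

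In the beta window 5 of 9 regions had D above 0 on both slides, 2 had D below 0 on both and 2 changed sign. Over all regions these shares were 39.1%, 23.7% and 37.2%. The difference between slides was large at several beta regions. Beta 2 had D of 0.02 and 0.95, beta 5, chr7:110991144-110992692, had 0.86 and 0.32, and beta 7, chr7:111000712-111002103, had 0.78 and -0.24. Beta 4, chr7:110989933-110991105, had -0.13 and -0.02 and lay close to 0 on both. Beta 6, with 0.35 and 0.37, and beta 8, with 0.33 and 0.35, gave nearly equal values on the slides, but both were dim in both pools. A bound on the fold raises dim control probes to the lowest immunoprecipitated signal well above background on their array. This bound was 0.37 for beta 6 and 0.53 for beta 8, and it lay below 1 at every beta region. In the alpha window it was 1.06 for alpha 4 and 1.05 for alpha 7, against folds of 1.30 and 1.28 without it. The size of D in the beta regions is therefore not that of a measured difference. Regions of the level of beta 8 elsewhere on the array had a median D of 0.31 and 0.35, so that its difference was that of its level. For beta 6 the median of such regions was 0.22 and 0.20.

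The edge of the beta window crossed 1 more region, chr7:110939316-110940974, which starts outside it and is not among the 18. It held 11 probes, 7 of them members. Its M was -0.42 and -0.36 in the food restricted pool, against -1.21 and -1.24 in the control pool, and both slides gave the same picture. D was 0.79 and 0.88, and the region was called higher. In the control pool 9 of its 11 probes were dim on both arrays, against 1 of 11 in the food restricted pool, so the control level was not measured. The bound on the fold lay below 1, no fold is given, and the size of D is not that of a measured difference. The immunoprecipitated signal differed by 0.48 and 0.36 and the total DNA signal by 0.02 and 0.10. Mean D was 0.83, 0.60 with loess, 0.42 in the immunoprecipitated channel alone, 0.080 with normexp correction and 0.021 with the pools set by the value table's column labels.

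The remaining alpha regions lay nearer the middle of the array. Alpha 1, chr11:32166530-32168060 with 8 probes, had M of -0.61 and -0.72 in the food restricted pool, against -0.62 and -0.86 in the control pool. Alpha 3, chr11:32169663-32170991 with 5 probes, had 0.31 and 0.18 in the food restricted pool, against 0.48 and 0.68 in the control pool, with D of -0.17 and -0.49. Alpha 9, chr11:32195181-32195551 with 3 probes, had -0.38 and -0.25 in the food restricted pool, against -0.43 and -0.55 in the control pool. At alpha 1 and alpha 9 the slide 1 pools were nearly equal, with D of 0.01 and 0.05.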

How the data were processed

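Immunoprecipitated and total DNA of 2 pools were hybridised on 4 two-colour arrays, per the labels. Per the submitters' processing notes, scans were read with Agilent Feature Extraction 10.5.1.1. The processed intensity of each channel was deposited by the authors with background subtracted and a linear dye factor applied, per the file headers, and the deposited flags for outliers, saturation and dim signal were used unchanged. No source used here names the antibody, the fragmentation or any amplification. The deposited value table holds log2 of red over green, and 2 of its columns hold each other's scanner values (equal within 0.001 at 100% of probes, and r = -0.91 with the file of their own sample). Its column medians were -0.23, 0.24, -0.12 and 0.18. It was used as an alternative, matched to scanner files by value.

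The dyes in the titles set the direction of M, which was centred on the median of each array, with no loess or quantile step. Pools were paired by slide, since each slide held both pools in 1 dye orientation, per the labels; over all probes M correlated between the pools at r = 0.94 on each slide. Of 415814 probes 65 were left out for outlier flags. Python 3.11.15 with numpy 2.4.6 and pandas 2.3.3 was used, and R 4.3.3 with limma 3.58.1 for loess, quantile and normexp (offset 50). Region building and calling were tested on simulated data with independent noise of the same size at every probe. That test does not cover dim probes, which vary more, so it gives no assurance for the beta window. Named in full were the 3 regions of highest and of lowest mean M per locus, called regions and the longest runs above and below 0. The value of other regions and of single probes was given after their values were seen. The windows, members and settings were chosen with earlier results of these data known. No test was run, because each group was 1 pool; the number of arrays limits the precision.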

Additional observations from a re-analysis of the deposited data

How the results depend on the processing

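No p-value supports any of these values, 2 arrays of 1 pool per group cover the spread of the hybridisation alone, and dim probes limit the beta window most: 12 of its 84 probes stayed after the filter on dim immunoprecipitated signal, against 43 of 61 alpha probes. The cause of each change was not tested. The beta window stayed below 0 and below its flanks under each of the 13 alternatives run for either value. Not all of these could have differed. A change of centring cannot move the difference from the flanks, and the value table holds the ratios of the scanner files. As reported, its level averaged -1.36 over the arrays, its difference from the flanks -0.43 and its D 0.21; the alpha values were -0.35, 0.054 and 0.062. Level and D here are means over arrays or slides. Without centring the levels were -1.55 (beta) and -0.54 (alpha), and D of alpha was 0.15. With each array centred on its densest value the levels were -0.36 and 0.64 and D was 0.015 and -0.13, while the median D of all regions moved to -0.20 and -0.06 on the slides, from 0.04 and 0.09. Loess gave levels of -0.54 (beta) and -0.46 (alpha) and an alpha D of 0.0086, and quantile normalization D of 0.031 (beta) and -0.036 (alpha). Normexp gave levels of -0.17 (beta) and -0.39 (alpha), which reversed the order of the windows. For beta it gave a difference from the flanks of -0.093 and D of -0.0021. Without dim or saturated total DNA probes the beta level was -1.44 and its D 0.41. Without dim immunoprecipitated probes the levels were -1.03 and 0.24, the differences from the flanks -1.58 and 0.29, and the alpha D -0.065. With means over probes the levels were -1.28 and -0.10, the beta difference from the flanks -0.70 and the alpha D 0.11. The immunoprecipitated channel alone gave levels of -2.24 and 0.18 and an alpha D of -0.13. Flanks of 500 kb gave -0.70 for beta. With the running median of D along M taken off, D was 0.049 (beta) and -0.025 (alpha). Leaving out replicate 1 or 2 gave D from 0.12 to 0.29 (beta) and from 0.028 to 0.096 (alpha). Without the slide as replicate block, D was 0.21 and 0.022. In 2 alternatives chosen after seeing the data, pools set by the value table's column labels and very bright total DNA probes left out, D was 0.17 (beta) and 0.020 (alpha) under the first and the alpha level -0.32 under the second. By construction the first sets arrays of slide 1 against arrays of slide 2. It called beta 1 higher, with D of 1.09 and 1.10 against -0.35 and -0.34 as reported, and gave a mean D of -0.047 for alpha 2, 0.013 for alpha 6 and 0.021 for the region across the edge. Of 18 regions, those called higher numbered 0 as reported, 1 without centring, in the immunoprecipitated channel alone and with no replicate block (alpha 6 each time), 1 by the value table's labels (beta 1), 2 without dim total DNA probes (alpha 6 and beta 6) and 3 without replicate 1 or 2. Those called lower numbered 0 as reported, 1 with the densest value, the immunoprecipitated channel alone and no replicate block (alpha 2 each time), 1 without dim total DNA probes (beta 1), and 0 to 3 without a replicate. Over the array, 2580 higher and 364 lower regions became 4071 and 227 without centring, 826 and 1331 with the densest value, 668 and 581 with quantile, 4826 and 237 with loess, 1552 and 1 with normexp, 1709 and 67 without dim immunoprecipitated probes, 621 and 567 with the running median off, 109 and 24 at a size of 1, and 1433 and 584 by the value table's labels. Lower regions numbered 128 without dim total DNA probes, 107 with means and 977 in the immunoprecipitated channel alone. Without a replicate, 6998 to 7799 were higher and 2124 to 2542 lower.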
